A study of Mus musculus with 4 samples.

Results

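Nuclear hormone receptors were examined in RNA-seq data of mesothelial cells sorted from the mouse peritoneal cavity. The 43 genes described here are members of the superfamily picked by gene symbol, out of 48425 genes in the deposited table. The glucocorticoid and mineralocorticoid receptors and Nr1d1 and Nr1d2 were left out of the selection, and the rule itself uses no measured value, although earlier results of these data were known when it was set. The cells came from 4 C57BL/6 mice aged 10 weeks, 1 library per animal, which form a single untreated group with the label WT. They were freshly detached from the peritoneal cavity with trypsin and EDTA at body temperature and sorted as CD45 negative and positive for podoplanin and Gpm6a, so the levels are those of dissociated cells. No undigested tissue and no second condition was measured, and the labels give no sex and no time of day.

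Nuclear receptors are transcription factors with a zinc-finger domain that binds DNA and, in most members, a pocket that binds a small lipophilic ligand such as a retinoid, a thyroid or steroid hormone, a fatty acid or an oxysterol. Many of them work as heterodimers with a retinoid X receptor, recruit corepressors without ligand and exchange them for coactivators when ligand binds. Orphan members have no known natural ligand or work without one. Mesothelial cells are known to express an enzyme that forms retinoic acid, Aldh1a2.

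The 4 libraries held 4090224 to 4569578 estimated counts. CPM below are estimated counts per 1000000 of the library's column total, and 3 counts, the limit that a count of 0 allows, correspond to 0.657 to 0.733 CPM in a library and 0.171 CPM over the group. Each pair of libraries differed far beyond sampling noise, with a chi-square per gene of 10.7 to 26.2, so all 4 were kept as replicates. The libraries were closest within the pairs of animals 1 and 4 (10.7) and of animals 2 and 3 (15.5), against 20.5 to 26.2 for the other pairs. The cells carried the transcripts of their label: all 11 mesothelial markers lay above 1 CPM, and their sum was 13162 to 14797 CPM, led by the uroplakin gene Upk3b at 4135 ± 236 CPM (SD, n = 4, as for all means below). Markers of other cells were sparse, apart from those of fibroblasts and 2 muscle markers. The 12 leukocyte markers summed to 0.994 to 19.9 CPM with Itgam and Coro1a at 0. The highest of them by mean, Lyz2, Laptm5 and Cd79a, had 5.73, 3.94 and 5.66 CPM in animal 1. The 8 endothelial markers summed to 0.239 to 2.51 CPM with Cdh5, Emcn, Cldn5 and Lyve1 at 0. The 6 adipocyte markers summed to 0 to 0.478 CPM with Adipoq, Cidec, Lep and Cfd at 0. None of these 3 lists had a gene called above 1 CPM by edgeR, by DESeq2 or by limma with voom weights, and at an unadjusted p under 0.05 in edgeR the counts were 1, 0 and 0 genes. With a filter on 10 counts edgeR called 1 leukocyte marker. The 8 hepatocyte and intestinal markers summed to 0 to 7.77 CPM, with 0 called by the 3 tools and 0 at an unadjusted p under 0.05 in edgeR, and Alb, Ttr, Fabp1, Alpi, Vil1 and Cdx2 were at 0. Of 8 muscle markers 2 were called, Des at 24.7 ± 11.8 CPM and Myh11 at 10.4 ± 3.90 CPM. The 8 summed to 26.6 to 54.3 CPM, with Ckm, Myh4 and Actg2 at 0. Of 10 fibroblast markers 9 were called, and their sum was 14828 to 22467 CPM. Dcn, at 12889 ± 2116 CPM, made up most of it. The sum and the collagen genes Col1a1, Col1a2 and Col3a1 were higher in animals 2 and 3 than in animals 1 and 4. Lum was lowest in animal 3 and Thy1 in animal 2. The mesothelial marker Krt19 was also higher in animals 2 and 3.

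Of the 43 receptors, 32 had a count in at least 1 animal and 21 were called above 1 CPM in a one-sided quasi-likelihood test of edgeR, with Benjamini-Hochberg adjustment over all genes at a threshold of 0.05. By the same test 24.7% of all genes in the table were called, and the table includes 25824 genes that had no whole count in any library. The median of the 43 mean levels was 2.17 CPM, against 0 CPM for all genes. The 21 genes came from 13 of the 18 subfamilies. Among the receptors 1 reached a mean of 100 CPM, 5 reached 50 CPM, 12 reached 10 CPM and 16 reached 5 CPM. The summed level of the 43 genes was 1380.0, 638, 929.6 and 982 CPM in animals 1 to 4, which is 0.138%, 0.0638%, 0.093% and 0.0982% of all counts. Counts of Nr4a1 made up 64.5%, 25.2%, 18.1% and 47.0% of that sum in animals 1 to 4.

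**Figure D1:**
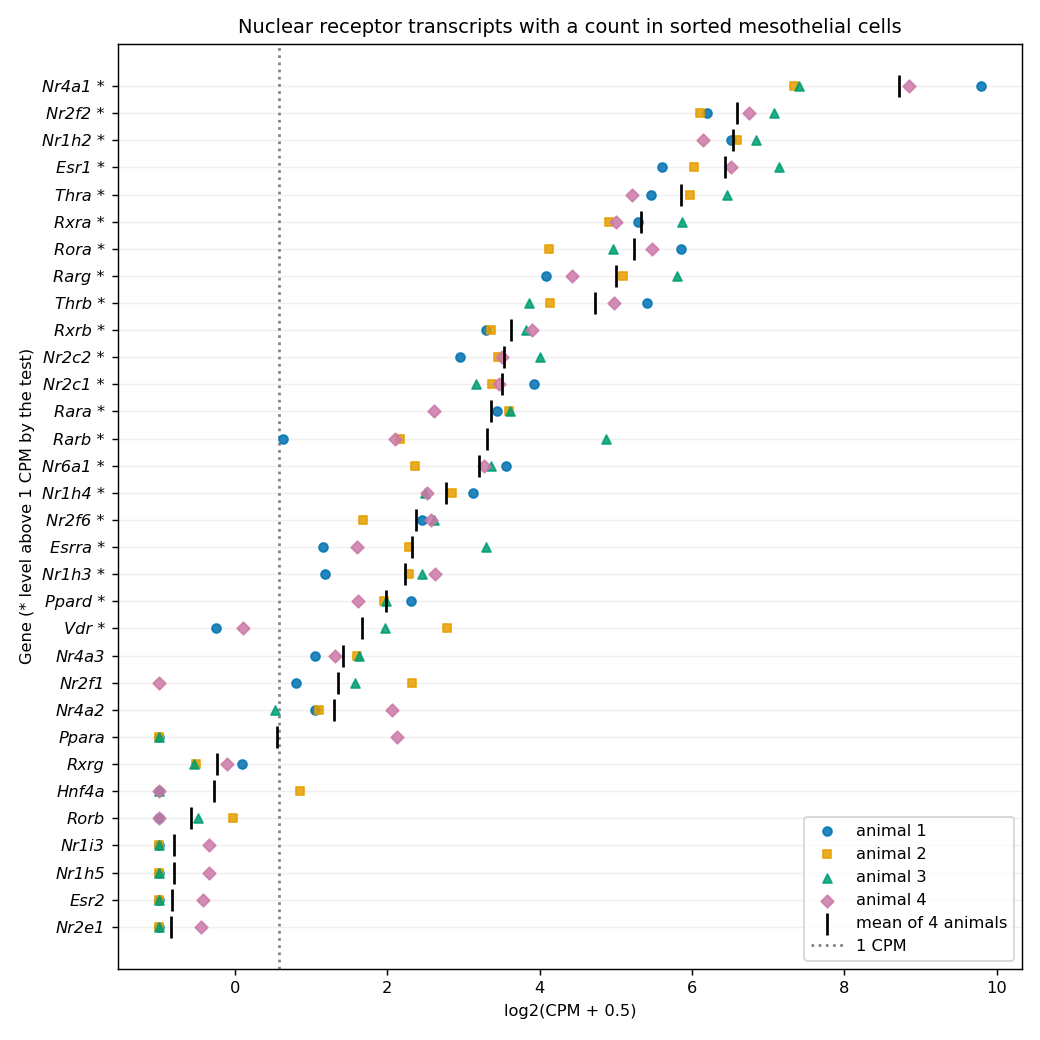
Level of each of the 32 receptors with a count, as log2(CPM + 0.5) on the horizontal axis, with 1 symbol per animal, a black bar at the mean of 4 animals and a dotted line at 1 CPM. Genes are ordered by CPM, which is not corrected for transcript length. Nr4a1 is at the top, with 161 to 889.6 CPM, and Nr2f2, Nr1h2, Esr1 and Thra follow with means of 57.6 to 95.6 CPM.

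The Nr4a receptors are orphan members that act without a ligand and are induced within minutes by stress, calcium and cyclic AMP signals. Nr4a1 (Nur77; chromosome 15, 101254269 to 101274795) had 889.6, 161, 168 and 462 CPM in animals 1 to 4, a mean of 420.1 ± 343 CPM. Animals 1 and 4 were high and animals 2 and 3 low, with a 5.54-fold range, and without animal 1 the mean was 264 CPM. In these bulk libraries fewer cells with the transcript and less RNA per cell cannot be told apart. Nr4a2 (Nurr1), known for its part in dopamine neurons, had 1.58, 1.65, 0.946 and 3.69 CPM, and Nr4a3 (Nor1), the third member, had 1.58, 2.55, 2.59 and 1.98 CPM. Neither passed the test against 1 CPM in edgeR (adjusted p = 0.246 for Nr4a2 and 0.0992 for Nr4a3), although Nr4a3 passed with limma and voom weights (adjusted p = 0.0046) and with DESeq2 (adjusted p = 0.0384). Per kilobase of the longest annotated transcript, Nr4a1 stood at 165 ± 134 CPM per kb, Nr4a2 at 0.551 ± 0.334 and Nr4a3 at 0.38 ± 0.0847. The within-animal difference of log2((CPM + 0.5) per kb) was 7.64 ± 1.10 for Nr4a1 over Nr4a2 and 8.11 ± 1.47 for Nr4a1 over Nr4a3, with Nr4a1 higher in 4 of 4 animals in both. Over Nr4a3 it was 6.95 without division by length and 7.51 without animal 1.

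Pairs of related receptors were compared within animals on that scale throughout, with signs flipped in an exact permutation test, two-sided. With 4 animals the smallest p it allows is 2 in 16, so no pair can pass a threshold of 0.05. Of 20 pairs compared, 15 had one gene higher in 4 of 4 animals, each at that smallest p of the exact permutation test (p = 0.167 after adjustment over the 20 pairs). In 5 of the 20 pairs a gene lay at or under the 3-count limit, and those differences depend on the pseudocount and are not given as folds. In 3 further pairs, Ppard with Ppara and Nr2f2 and Nr2f6 with Nr2f1, a gene was at 0 in some animals, whose differences are likewise set by the pseudocount.

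The sequences before the annotated starts of the 3 Nr4a genes are shown because all 3 are known as genes induced through cyclic AMP response elements, while their levels here were so unequal. The 250 bases before each start, 5′ to 3′ on the gene's strand, are from RefSeq on GRCm38.p6, and capitals mark TGACG, the core of the cyclic AMP response element, on either strand (CGTCA where it lies on the other strand). Matches do not overlap each other.
Nr4a1, chr15:101266596-101266845, plus strand: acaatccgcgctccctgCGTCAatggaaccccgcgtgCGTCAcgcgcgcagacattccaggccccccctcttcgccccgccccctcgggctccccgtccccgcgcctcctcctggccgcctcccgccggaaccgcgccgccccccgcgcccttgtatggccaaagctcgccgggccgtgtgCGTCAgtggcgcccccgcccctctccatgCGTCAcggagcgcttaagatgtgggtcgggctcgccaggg
Nr4a2, chr2:57124004-57124253, minus strand: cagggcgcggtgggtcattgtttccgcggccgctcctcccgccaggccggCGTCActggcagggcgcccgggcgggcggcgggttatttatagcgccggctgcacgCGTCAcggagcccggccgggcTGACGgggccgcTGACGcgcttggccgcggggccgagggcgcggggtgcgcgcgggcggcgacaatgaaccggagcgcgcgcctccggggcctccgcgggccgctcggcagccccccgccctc
Nr4a3, chr4:48045055-48045304, plus strand: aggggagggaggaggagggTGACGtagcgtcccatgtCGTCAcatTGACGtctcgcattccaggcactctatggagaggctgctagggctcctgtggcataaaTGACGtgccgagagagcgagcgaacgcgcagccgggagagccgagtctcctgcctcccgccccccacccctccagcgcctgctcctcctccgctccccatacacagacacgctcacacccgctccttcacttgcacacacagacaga

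Each of the 3 windows held 4 matches to TGACG. Of 32851 such windows in the RefSeq table, 17.8% held at least 1 match and 45 windows, or 0.137%, held at least 4. Among 61 windows of the 40 receptors with an entry, 13 held a match, and the 3 Nr4a windows were those with at least 4. The motif was chosen with the levels known, and a match describes letters only. The 3 windows with equal numbers of matches belonged to genes at 165, 0.551 and 0.38 CPM per kb on average.

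**Figure D2:**
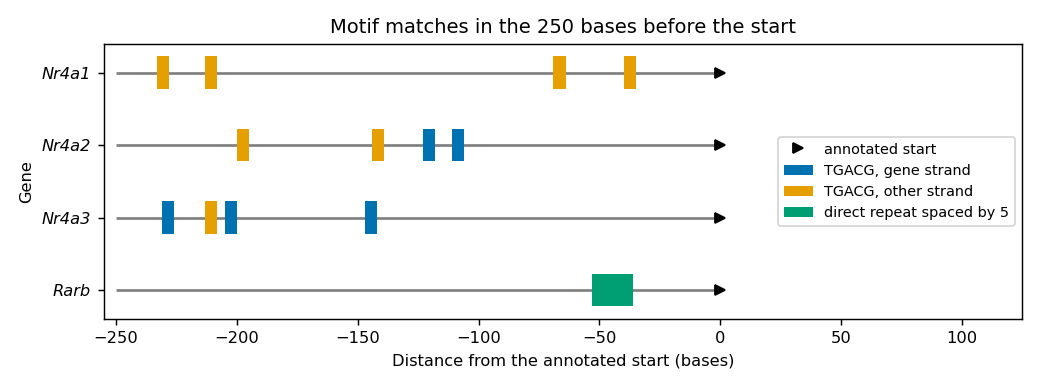
Position of each motif match in bases from the annotated start, in the 250 bases before the starts of Nr4a1, Nr4a2, Nr4a3 and Rarb. Blue and orange blocks are TGACG on the gene's strand and on the other strand, with 4 in each Nr4a window, and the green block is the direct repeat of Rarb at -53 to -37.

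Other immediate early genes were present in the same cells. In the list of 12 such genes 11 were called above 1 CPM. The SD as a share of the mean was 14.4% to 37.4% in 10 of the 12, against 81.6% for Nr4a1, while Egr2 at 104% and Egr3 at 146% varied more. Fos, a subunit of the AP-1 factor, had 4744, 4117, 3948 and 5382 CPM in animals 1 to 4, a 1.36-fold range. Egr1, a zinc-finger factor, had 1150.4, 933, 1460 and 1104 CPM. Btg2, an antiproliferative gene, had 2221, 1374, 902 and 2055 CPM. Fos and Btg2 were, like Nr4a1, higher in animals 1 and 4 than in animals 2 and 3, whereas Egr1 was highest in animal 3. The lowest gene of the list, Egr3, had 4 counts in all. The summed level of the 12 genes was 11606, 11424, 10103 and 12549 CPM. The sum was nearly the same in animal 2, with the lowest Nr4a1 level, and animal 1, with the highest. Single genes differed between these animals in both directions. Fos, Egr1, Egr2, Egr3 and Btg2 were higher in animal 1. Jun, Junb, Jund, Fosb, Ier2, Atf3 and Dusp1 were higher in animal 2. The near-equal sum thus does not show an equal response, and the part of such a response in the Nr4a1 level was not tested. The leukocyte marker sum was 19.9, 5.28, 1.502 and 0.994 CPM in animals 1 to 4, highest in animal 1 and lowest in animal 4, and its part in the Nr4a1 level was not tested.

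**Figure D3:**
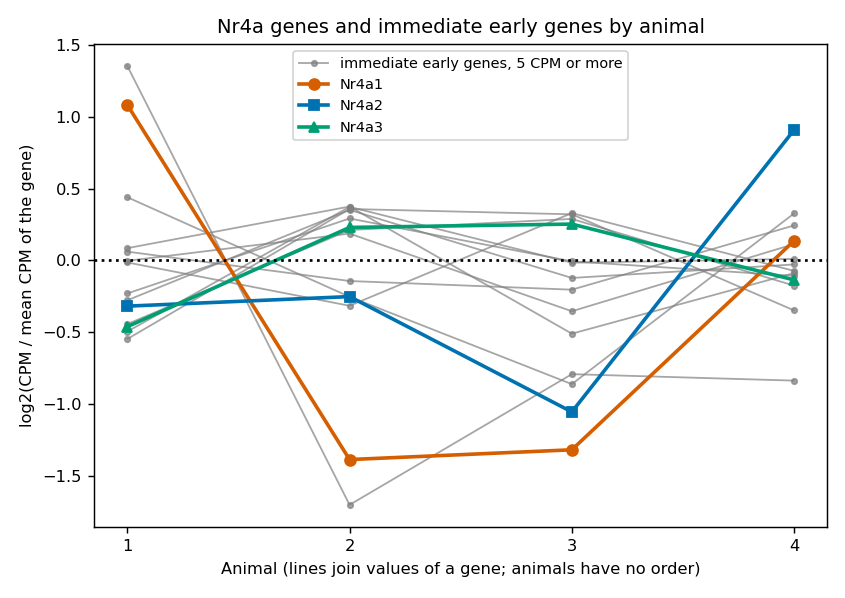
Log2 ratio of each animal's CPM to the gene's mean over 4 animals, for Nr4a1, Nr4a2, Nr4a3 and, in grey, the immediate early genes with a mean of 5 CPM or more. Nr4a1 lies above its mean in animals 1 and 4 and below it in animals 2 and 3. Fos does so too, within a 1.36-fold range, and Egr2 spans an 8.31-fold range.

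Retinoic acid receptors bind all-trans retinoic acid and pair with retinoid X receptors. All 3 lay above 1 CPM. Rarg had 16.5, 33.8, 55.4 and 20.96 CPM in animals 1 to 4 (mean 31.7 ± 17.5 CPM), Rara had 10.4, 11.6, 11.7 and 5.63 CPM (9.83 ± 2.86 CPM), and Rarb, itself a classical target of retinoic acid, had 1.05, 3.99, 28.7 and 3.80 CPM. Animal 3 was the highest for all 3, by far for Rarb, whose mean of 9.39 ± 12.96 CPM became 2.95 CPM without that animal. The call for Rarb was lost with limma and voom weights (adjusted p = 0.114) and kept in edgeR without animal 3 (adjusted p = 0.0178). Per kilobase Rarg stood at 10.7 ± 5.91 CPM per kb against 2.90 ± 0.845 for Rara. The log2 difference per kb was -1.73 ± 0.66 for Rara over Rarg and 2.48 ± 1.09 for Rarg over Rarb, with Rarg higher in 4 of 4 animals in both pairs, and with the median transcript length these were -4.08 and 3.72. Rara and Rarb had no settled order. The log2 difference of Rara over Rarb was 0.75 ± 1.71 with Rara higher in 3 of 4 animals, 0.11 without animal 1, 1.46 without animal 3 and -0.36 with the median transcript length.

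The Rarb level is uncertain because of its neighbour. Rarb (chromosome 14, 16430839 to 16819156, minus strand) overlaps the topoisomerase gene Top2b on the other strand over 4624 bases, and 55.6% of the 31-base words of its longest transcript also occur in antisense transcripts. The use of strand in counting was not given in the sources used here, and without strand the reads of both genes in the overlap cannot be told apart. Top2b had 21.7, 46.5, 68.7 and 22.8 CPM in animals 1 to 4 and was also highest in animal 3. The part of Top2b reads in the Rarb values was not tested.

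The Rarb promoter is shown because it carries the kind of retinoic acid response element through which Rarb is known to respond to its own ligand. Capitals mark both hexamers of a direct repeat spaced by 5 bases, found by searching NGNTCA, any 5 bases and again NGNTCA on both strands of the 250 bases before the start (RefSeq, GRCm38.p6).
Rarb, chr14:16575477-16575726, minus strand: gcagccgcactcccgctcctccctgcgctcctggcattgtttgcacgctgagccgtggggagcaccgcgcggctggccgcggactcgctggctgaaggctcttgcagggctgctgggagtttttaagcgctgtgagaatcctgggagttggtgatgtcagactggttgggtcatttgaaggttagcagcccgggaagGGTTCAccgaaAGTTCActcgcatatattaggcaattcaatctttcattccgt

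The repeat lay at -53 to -37 from the annotated start. This motif occurred in 255 of the 32851 windows (0.776%) and in 1 of the 61 receptor windows. Among 12 genes of retinoid supply and response 7 lay above 1 CPM. Dhrs3, a retinaldehyde reductase induced by retinoic acid, had 348, 796, 1361 and 517 CPM and was highest in animal 3, as Rarb and Rarg were. Aldh1a2, the enzyme that forms retinoic acid, had 224, 292, 240.3 and 253 CPM and its highest value in animal 2. The transglutaminase gene Tgm2 stood at 380.1 ± 110.3 CPM. Crabp1, which codes for a retinoic acid binding protein, was at 0. The fibroblast marker sum, mostly Dcn, was 15100.2, 22467, 19829 and 14828 CPM in animals 1 to 4, higher in animals 2 and 3. Its part in the Rarb and Rarg levels was not tested.

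Retinoid X receptors are the shared partners of the retinoic acid, thyroid hormone, vitamin D, PPAR, LXR and FXR receptors. Rxra had 38.8, 29.7, 58.2 and 31.7 CPM (39.6 ± 12.98 CPM) and Rxrb 9.28, 9.77, 13.7 and 14.5 CPM (11.8 ± 2.65 CPM). Rxrg, a form found mainly in muscle and brain, had 7 counts in all. Per kilobase Rxra exceeded Rxrb by 0.78 ± 0.44 on the log2 scale, in 4 of 4 animals, and by 1.68 without division by length.

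Thyroid hormone receptors regulate genes in response to triiodothyronine. Thra (chromosome 11, 98740638 to 98769006) had 43.6, 62.5, 87.4 and 36.7 CPM in animals 1 to 4 (57.6 ± 22.7 CPM), and Thrb had 42.2, 17.1, 13.99 and 30.9 CPM (26.0 ± 13.01 CPM). The receptors ran in opposite order: animals 2 and 3 were the highest for Thra and the lowest for Thrb. The fibroblast marker sum, mostly Dcn, was also higher in animals 2 and 3, and its part in these levels was not tested. Thra exceeded Thrb per kilobase by 2.52 ± 1.24 on the log2 scale in 4 of 4 animals, with differences of 1.39, 3.18, 3.94 and 1.58 in animals 1 to 4. It was 1.46 with the median transcript length and 1.18 without division by length. Thra overlaps the clock gene Nr1d1 on the other strand over 1075 bases at the 3′ end, and 9.87% of its 31-base words occur in antisense transcripts. Nr1d1 had 510.2, 194, 202 and 450.5 CPM, low in the animals in which Thra was high, and the part of its reads in the Thra values was not tested. Of 10 genes of thyroid hormone handling and response 5 were called, led by Klf9, a zinc-finger factor induced by thyroid hormone and by glucocorticoids, with 229, 71.6, 80.9 and 188 CPM, and by Hr, a corepressor, at 12.8 ± 5.88 CPM. The deiodinase genes Dio1, Dio2 and Dio3, which activate or inactivate the hormone, were at 0.

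The liver X receptors sense oxysterols and control cholesterol export. Nr1h2 (LXR-beta, chromosome 7, 44549616 to 44553951) had 90.5, 95.9, 113.9 and 70.4 CPM in animals 1 to 4 (92.7 ± 17.9 CPM). Its coefficient of variation, 19.3%, was the lowest of the 16 members with a mean of 5 CPM or more. It was not low for its level: the 200 genes nearest in mean had a median of 17.3%, and 59% of them varied less. Nr1h3 (LXR-alpha), prominent in liver and macrophages, had a mean of 4.21 ± 1.72 CPM. Nr1h2 exceeded Nr1h3 per kilobase by 4.37 ± 0.74 on the log2 scale, in 4 of 4 animals, and by 5.69 with the median transcript length. Of 8 LXR target genes 7 were called. The apolipoprotein gene Apoe had 549, 726, 969.9 and 811 CPM, the phospholipid remodelling gene Lpcat3 95.7 ± 26.5 CPM and the LDL receptor ligase gene Mylip 69.4 ± 22.6 CPM. The cholesterol exporter gene Abcg1, at 0, 0, 6.37 and 5.21 CPM, was not called.

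Nr1h4, the bile acid receptor FXR, had 8.25, 6.71, 5.16 and 5.23 CPM (6.34 ± 1.46 CPM) and was above 1 CPM (adjusted p = 3e-08 by edgeR). Its values lay close together, with a 1.60-fold range. Bile acid receptor transcripts are known mainly from liver, intestine, kidney and adrenal. The mean level per kilobase was 3.15 ± 0.726 CPM per kb, near that of Rora at 3.42 ± 1.60. That likeness depends on the length used. Without division by length Rora had 37.2 ± 17.4 CPM, and its longest transcript has 10878 bases against a median of 1086.5. For Nr1h4 these lengths are 2013 and 1985 bases. None of 10 target genes of the bile acid, xenobiotic and vitamin D receptors was called by edgeR, DESeq2 or limma with voom weights, and 0 had an unadjusted p under 0.05 in edgeR. The bile acid transporter genes Abcb11 and Slc51a and the hormone gene Fgf15, well-known FXR targets of liver and intestine, were at 0. Nr1h5, which is a pseudogene in humans, had 1 count.

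Peroxisome proliferator-activated receptors sense fatty acids. Ppard, the form found in most tissues, had 4.46, 3.39, 3.44 and 2.56 CPM, with a mean of 3.46 ± 0.777 CPM, and was the one member of the 3 above 1 CPM (adjusted p = 0.000618 by edgeR). Ppara, the fasting regulator of liver, had 0, 0, 0 and 3.87 CPM, so its 16 counts came from animal 4 alone. Pparg, the regulator of fat cell formation, had 0 counts in all 4 libraries, which allows a level of up to 0.171 CPM over the group, beside adipocyte markers of at most 0.478 CPM in sum. Of 9 PPAR target genes 8 were above 1 CPM. The lipid droplet gene Plin2 stood at 253 ± 39.8 CPM and the fatty acid oxidation gene Acadm at 122 ± 15.4 CPM, while the fatty acid transporter gene Cd36 had 4 counts.

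The vitamin D receptor and the xenobiotic receptors form a further group of hormone and metabolite sensors. Vdr had 0.340, 6.36, 3.43 and 0.576 CPM (2.68 ± 2.83 CPM), with animals 2 and 3 above 1 CPM and animals 1 and 4 below it. The fibroblast marker sum, mostly Dcn, was higher in animals 2 and 3 as well, and its part in the Vdr level was not tested. Vdr was the lowest of the genes called (adjusted p = 0.0345 by edgeR). The call was lost without animal 2 (mean 1.45 CPM, adjusted p = 0.927 by edgeR), without animal 3 (adjusted p = 0.147 by edgeR) and with limma and voom weights (adjusted p = 0.768). Just outside the call were Nr4a3 at 2.17 ± 0.485 CPM, Nr2f1 at 2.06 ± 1.93 CPM and Nr4a2 at 1.97 ± 1.19 CPM. Just inside, above Vdr, was Ppard. In simulated data the edgeR test called 57.5% of genes with a true level of 2 CPM, so a gene near that level can be missed. The vitamin D-degrading enzyme gene Cyp24a1, the strongest known Vdr target, was at 0. Nr1i2 (PXR) had 0 counts and Nr1i3 (CAR) 1 count, and their target genes Cyp3a11 and Cyp2b10 were at 0.

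Of the 3 steroid receptors examined, Esr1, Esr2 and Pgr, 1 was called, estrogen receptor alpha. Esr1 (chromosome 10, 4611593 to 5005614) had 48.2, 64.6, 140.5 and 91.1 CPM in animals 1 to 4 (86.1 ± 40.4 CPM), with animal 3 high and a 2.92-fold range. Esr2, the other estrogen receptor, had 1 count, and Pgr, the progesterone receptor gene that estrogen induces in the uterus, had 0. The labels do not state the animals' sex. Among the estrogen-related receptors, orphan regulators of mitochondrial genes, Esrra had 1.74, 4.37, 9.33 and 2.55 CPM (4.50 ± 3.40 CPM, or 2.89 CPM without animal 3), and Esrrb and Esrrg had 0 counts. Per kilobase the log2 difference of Esrra over Esr1 was -2.89 ± 0.55, with Esr1 higher in 4 of 4 animals, and -4.23 without division by length.

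COUP transcription factors are orphan receptors that mark mesenchyme and veins. Nr2f2 (COUP-TFII; chromosome 7, 70351944 to 70366735) had 72.9, 68.1, 134.6 and 106.7 CPM, a mean of 95.6 ± 31.2 CPM, and was highest in animal 3. Nr2f6, a repressor in lymphocytes, had 4.69 ± 1.35 CPM, and Nr2f1, which patterns the cortex, had 1.24, 4.51, 2.49 and 0 CPM and was not called (adjusted p = 0.226 by edgeR). Without animal 4 Nr2f1 was called (adjusted p = 0.0407 by edgeR), and without animal 2 its mean was 1.24 CPM. Nr2f2 exceeded Nr2f6 per kilobase by 3.27 ± 0.33 on the log2 scale in 4 of 4 animals, and by 4.20 without division by length. Over Nr2f1 the mean difference was 4.49 without animal 4, in which Nr2f1 was at 0. Of the 31-base words of Nr2f6, 36.4% occur in antisense transcripts, mostly of Ocel1, which had 4.999 ± 5.21 CPM.

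The remaining orphan members were Rora, Rorb, Nr2c1, Nr2c2 and Nr6a1. Rora, a constitutive activator of the clock and of lipid genes, had 57.3, 16.9, 30.7 and 44.0 CPM (37.2 ± 17.4 CPM), high in animals 1 and 4 as Nr4a1 and Thrb were, and Rorb had 3 counts. The testicular receptors Nr2c1 (TR2) and Nr2c2 (TR4), repressors that bind direct repeats, had 14.7, 9.85, 8.50 and 10.5 CPM and 7.23, 10.5, 15.6 and 10.9 CPM. Per kilobase the log2 difference of Nr2c2 over Nr2c1 was -1.04 ± 0.75, with Nr2c1 higher in 4 of 4 animals, but it was 0.19 with the median transcript length, so the order of the pair depends on the length used. Of the 31-base words of Nr2c2, 46.0% occur in antisense transcripts, mostly of Mrps25 at 43.9 ± 4.56 CPM. In the same sense 14.2% occur in transcripts of other genes, with the most in Gm42933, and use of strand would not tell those apart. Nr6a1, the germ cell nuclear factor that silences Pou5f1 in the embryo, had 11.3, 4.65, 9.81 and 9.18 CPM (8.73 ± 2.86 CPM).

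**Figure D4:**
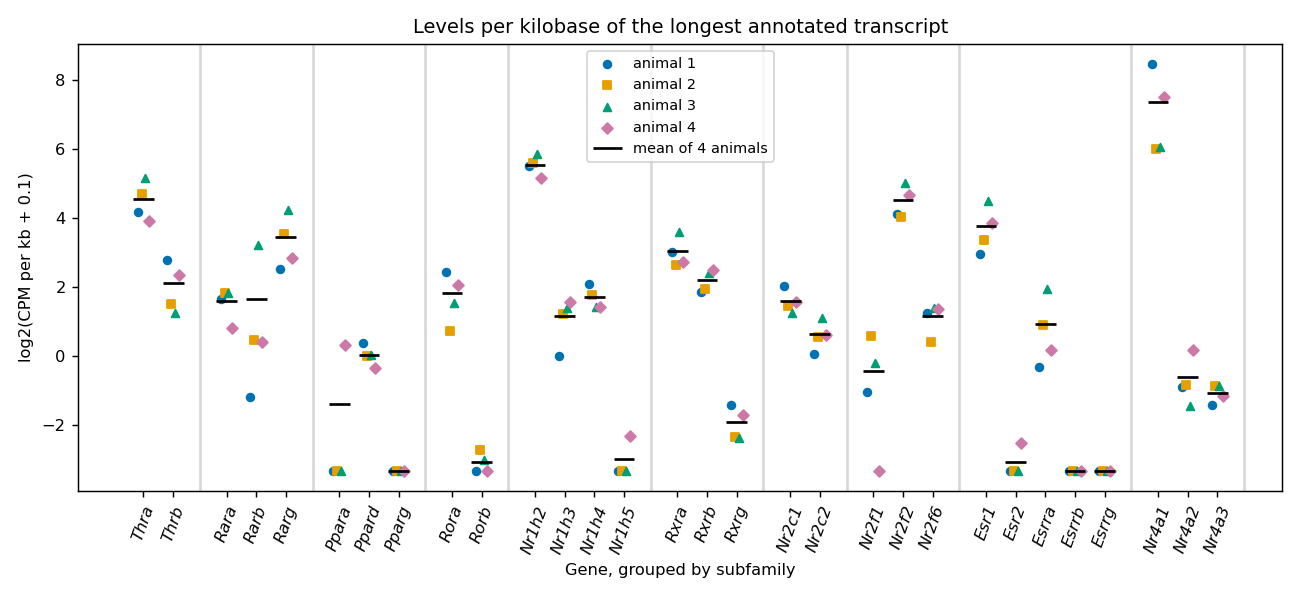
Levels as log2(CPM per kb + 0.1) of the longest annotated transcript, by subfamily, with 1 symbol per animal and a black bar at the mean. The gene highest in its subfamily stood at 165 CPM per kb for Nr4a1, 46.4 for Nr1h2, 23.5 for Thra, 22.6 for Nr2f2, 13.6 for Esr1 and 10.7 for Rarg.

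The 11 receptors with no whole count were Pparg, Nr1i2, Hnf4g, Nr2e3, Esrrb, Esrrg, Pgr, Nr5a1, Nr5a2, Nr0b1 and Nr0b2, of which Nr5a2 had a fractional estimate in animal 1. They include the regulators of steroid-making organs, Nr5a1 (SF-1) and its antagonist Nr0b1 (DAX-1), the hepatic Nr0b2 (SHP) and Nr5a2 (LRH-1), and the photoreceptor gene Nr2e3. Another 8 had counts but means under 1 CPM, namely Ppara, Rxrg, Hnf4a, Rorb, Nr1i3, Nr1h5, Esr2 and Nr2e1. Hnf4a, the hepatocyte and intestinal regulator, had 6 counts, all in animal 2, the animal in which the hepatocyte and intestinal markers summed to 7.77 CPM against 0 to 0.475 CPM in the others. Ppara in animal 4 and Hnf4a in animal 2 were above 1 CPM in that animal alone, and for the 8 genes the mean over 4 animals was not detectably above 1 CPM at this depth.

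Coregulators, through which the receptors act, were present nearly throughout. Of 12 coactivators 11 were called, led by the acetyltransferase gene Crebbp at 181 ± 61.1 CPM, the Mediator subunit gene Med1 at 172 ± 18.6 CPM and the p160 coactivator gene Ncoa3 at 132 ± 34.8 CPM. Ppargc1a (PGC-1alpha), the inducible coactivator of mitochondrial genes, had 2.25, 0.347, 1.59 and 0 CPM and was not called. All 9 corepressor genes were called, led by Tbl1x at 134.9 ± 21.04 CPM, Ncor1 at 61.4 ± 10.7 CPM and Gps2 at 60.3 ± 9.08 CPM, subunits of a corepressor complex, with Lcor lowest at 5.83 ± 2.41 CPM. Over all 8 lists of coregulators, target genes and immediate early genes, 58 of 82 genes were called, with a median of 21.2 CPM.

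The receptors differed in how much they varied between animals. The coefficient of variation (CV, the SD as a share of the mean) of the 21 called receptors had a median of 32.8%, and the median CV of the 200 genes nearest in mean to each was 37.4% at its median, and 12 of the 21 receptors lay above the value for their level. Nr4a1 had a CV of 81.6% against a median of 12.4% for the 200 genes nearest in mean, of which 99% had a lower CV. For Rarb the CV was 138% against 38.7%, for Esr1 46.9% against 17.5% and for Thrb 50% against 24.6%. Ppard, with a CV of 22.4% against 58.6%, and Rxrb, with 22.5% against 37.4%, varied less than most genes of their level. Of the 16 receptors with a mean of 5 CPM or more, 9 were highest in animal 3, 6 in animal 1, 1 in animal 4 and 0 in animal 2. The same count was not made for other genes of like level, so this split is not shown to be particular to the receptors. Nr4a1, Rora and Thrb were high in animals 1 and 4, and Thra and Rarg in animals 2 and 3. Over all genes, too, the libraries of animals 1 and 4 and those of animals 2 and 3 were closest to each other. With 4 animals no correlation between genes was computed.

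**Figure D5:**
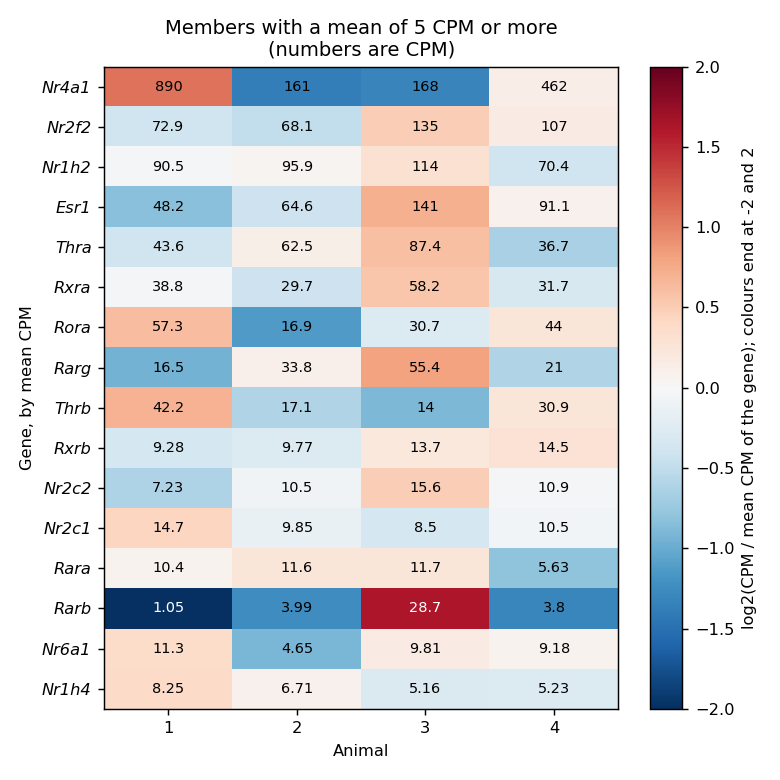
CPM of the 16 receptors with a mean of 5 CPM or more in each animal, coloured by the log2 ratio to the gene's mean (red above, blue below). Nr4a1, Rora and Thrb are red in animals 1 and 4, whereas Rarb, with 28.7 CPM in animal 3, and Rarg, Thra and Esr1 are reddest in animal 3.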

How the data were processed

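RNA of sorted peritoneal mesothelial cells was measured by RNA-seq after depletion of ribosomal RNA, per the labels' protocols, in 4 animals of 1 group. The authors deposited estimated counts per gene, 1 column per animal, and 99.89% of the nonzero values were not whole (tolerance 1e-06). GRCm38.p5 and the tools limma 3.38.3, edgeR 3.24.3 and kallisto 0.43.1 are listed, without their roles, per the submitters' processing notes. The summing of transcripts to genes and the use of strand were not given in the sources used here. Read number rises with transcript length, so levels of different genes were compared per kilobase of the longest GENCODE M21 transcript (GRCm38).

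Estimated counts were rounded and tested with edgeR 4.0.16 under R 4.3.3 (quasi-likelihood F test of the mean against 1 CPM, one-sided, column sums as library sizes, no filter, adjusted over 48425 genes). The packaged test takes no design with an intercept only, so the F statistic was built from deviances with and without the fixed mean. It was tested on simulated data, with 200 genes at each known level and the same spread between animals for every gene. It called 0.5% of the genes at 1 CPM, 57.5% at 2 CPM and 99% at 4 CPM. The libraries held 4090224 to 4569578 counts, and the common biological coefficient of variation was 42.3%. This spread limits the precision more than depth for abundant genes, and limits from 3 counts cover counting error only. The alternatives were TMM, DESeq2 1.42.0, limma 3.58.1 with voom weights, a filter on 10 counts, unrounded values, other thresholds and leaving out each animal. The members and lists were chosen with earlier results of these data known. Receptors with a mean of at least 5 CPM were to be named with every animal's value, and of each list the 3 highest genes, the lowest and those at 0. Other genes named, such as the antisense neighbours, were chosen after their values were seen. Promoter motifs were searched in the 250 bases before each RefSeq start, and 31-base words of the longest transcripts were compared with all other GENCODE transcripts. The values of 1 gene that this rule would name are not reported here. Replicates are separate animals per the series' design text.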

Additional observations from a re-analysis of the deposited data

Results flagged for a closer look

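Values were flagged where 1 of 4 animals lay far from the other 3, by Dixon's criterion at the 95% level (the gap to the nearest animal as a share of the range). Chance flags about 5% of groups of normally distributed values, and 8 of 93 values were flagged. The 93 values are not independent, because sums and pairs contain genes that were also checked singly. The share flagged is therefore not to be set against that 5%. Among the receptors these were Rarb, with 28.7 CPM in animal 3 against 1.05 to 3.99 CPM in the other animals, and Ppara, with 3.87 CPM in animal 4 and 0 in the others. The log2 difference per kb of Ppard over Ppara was -0.64 in animal 4. Ppara was at 0 in the other animals, so the pseudocount fixes their differences, which are left out. The coactivator sum was 824 CPM in animal 3 against 631 to 655 CPM in the others. Among marker genes, Cd79a, a B cell gene, had 5.66 CPM in animal 1. Apoa1 had 4.93 CPM and Fabp2 2.84 CPM in animal 2, and the hepatocyte and intestinal sum was 7.77 CPM there.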

How the results depend on the processing

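The number of receptors above 1 CPM was 21, and it was 14 to 24 over 11 alternatives. It was lowest against 5 CPM, where 19% of all genes were called, and highest against 0.5 CPM, where 26.7% were called. It was 21 with TMM and 22 with DESeq2, which called 53.1% of all genes it tested. With the filter on 10 counts it was 22, where 81% of all genes kept were called, against 24.7% without a filter in edgeR. Both settings also leave out receptors with few or no counts, so 22 of 43 is not the share to set against 53.1% or 81%. The number was 20 with limma and voom weights and with unrounded values, and 20 to 22 when each animal was left out. The pathway genes called numbered 52 to 60 against 58. The pairs with one gene higher in every animal numbered 13 to 17 against 15, and 11 of the 15 pairs with no gene under the 3-count limit were among them. Against 0.5 CPM, 2 leukocyte markers were called. The order of Nr2c2 and Nr2c1 turned round with the median transcript length (log2 difference 0.19) (2108 bases for Nr2c2 and 2413 bases for Nr2c1), against -1.04 with the longest transcripts of 7647 and 3732 bases. The order of Rara and Rarb, which differed by less than their spread, turned as well (-0.36). The mean summed level was 989 CPM with TMM and 850 to 1100 CPM when each animal was left out, against 982 CPM. With unrounded values Vdr was not called (adjusted p = 0.0562 by edgeR). No paired analysis was possible because the series holds a single group. At this depth 3 counts correspond to 0.657 to 0.733 CPM in a library, which limits statements on the receptors with few counts.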
